A study of Caenorhabditis elegans and Caenorhabditis briggsae with 12 samples.

Results

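Helitrons are DNA transposons that copy themselves by a rolling circle mechanism, and autonomous copies encode a Rep-Helicase transposase, a protein that nicks DNA and unwinds it from the nick. Full-length copies of the *C. elegans* element *Helitron1_CE* carry heat shock elements, the binding sites of the heat shock transcription factor HSF-1, so that the transposase gene and the stress response of the host share a regulator. The members described here are 6 genes tied to such transposases, out of 41381 genes in 2 tables of normalized counts. In the *C. elegans* table of 20213 genes they were *Y16E11A.2*, *ZK250.9*, *F59H6.5* and *F33H12.6*, 4 genes on chromosome II that lie at copies of *Helitron1_CE*, and *F52G3.4*. In the *C. briggsae* table of 21168 genes the member was *CBG26851*. The study related *CBG26851* to *F33H12.6* by protein similarity, and its ortholog table pairs *CBG26851* with *F52G3.4*.

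The samples were L2 larvae, taken whole, of the strains N2 (*C. elegans*) and AF16 (*C. briggsae*), the reference strains of the 2 species, which carry no introduced allele or transgene in the labels. Heat-shocked larvae (HS) were held at 34 °C for 30 min and control larvae (NHS) were kept at 20 °C, with 3 biological replicates of each in each species, 12 libraries of total RNA in all. One *C. briggsae* NHS library has a column name that differs from the others in its strain number, and it was used as an NHS library with no replicate number. Values are normalized counts, that is gene-level read estimates divided by a factor for the library, and each species was normalized by itself. The 6 genes were named for a rise after heat shock in these libraries or for their pairing with such a gene. Their HS and NHS values are therefore given as a description, with means, a standard error and no test. All 6 passed the filter of a mean of at least 2 normalized counts over the 6 libraries of their species.

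Dividing each library's total by the value of 1 read gave an estimated depth of 28600000 to 43900000 reads in the HS libraries and 32800000 to 39000000 in the NHS libraries of *C. elegans*, with HS replicate 3 the lowest. In *C. briggsae* it was 38000000 to 41600000 reads in HS and 34000000 to 52600000 in NHS. All 36 values of the members were whole numbers of reads within 0.01 reads, although the tables as a whole were not (70.4 to 72.1% of values above 0 in *C. elegans* and 88.9 to 89.3% in *C. briggsae*, within 0.05 reads). All 15 markers of intestine, muscle, pharynx, neurons, hypodermis and germline were detected in the *C. elegans* larvae. None of the 15 was called in limma (0 up and 0 down), while at any fold change 4 were higher and 4 lower in HS at an adjusted p under 0.01 and 11 had an unadjusted p under 0.05. Their log2 fold changes ran from -1.02 to 0.65 with a median of -0.17. Their summed level was 634433 to 701325 normalized counts in HS, against 538353 to 576041 in NHS. Myosin genes held most of that sum, with *unc-54* alone at 362618 to 407977 in HS and 288580 to 329668 in NHS. The sum therefore does not stand for the other tissues. Log2 fold changes were 0.19 to 0.37 for the myosin genes and 0.65 for *elt-2*. Those of all other markers were below 0, among them *ges-1* (-0.58), *unc-119* (-0.61) and *rab-3* (-0.54). Of 7 markers of adults and sperm, which larvae of this age should lack, 2 yolk protein genes were called up in HS, *vit-2* (log2 fold change 3.56, SE 0.58, limma adjusted p = 0.0013, a call lost without NHS replicate 1 at an adjusted p of 0.010) and *vit-5* (3.41, SE 0.51, adjusted p = 6.9e-04). The summed level of the 7 was 141.6 to 210 normalized counts in HS, against 65.1 to 73.5 in NHS. The sperm genes *msp-3* and *msp-142* were at 0 in 6 libraries and at 0 to 3.12 normalized counts, too low to be tested. The part of the 2 yolk genes in the results was not tested. The other 3 markers tested, *vit-6*, *col-19* and *spe-9*, did not pass the test. Because whole larvae were sampled, more cells expressing a gene and more RNA per cell cannot be told apart.

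All 5 *C. elegans* genes reached 237 to 2803 normalized counts after heat shock, against 0.887 to 36.4 in control larvae. The 3 HS values lay above the 3 NHS values for each of the 6 genes, and for 30.6% of all 17551 *C. elegans* genes tested and 25.7% of all 18470 *C. briggsae* genes tested. Across all genes, 10.2% were called up in *C. elegans* and 4.5% in *C. briggsae*, where a call from limma needed more than a 2-fold change and an adjusted p below 0.01. Since this contrast chose the members, nothing is read from their number. The level of each gene in each library is plotted on a log axis.

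**Figure D1:**
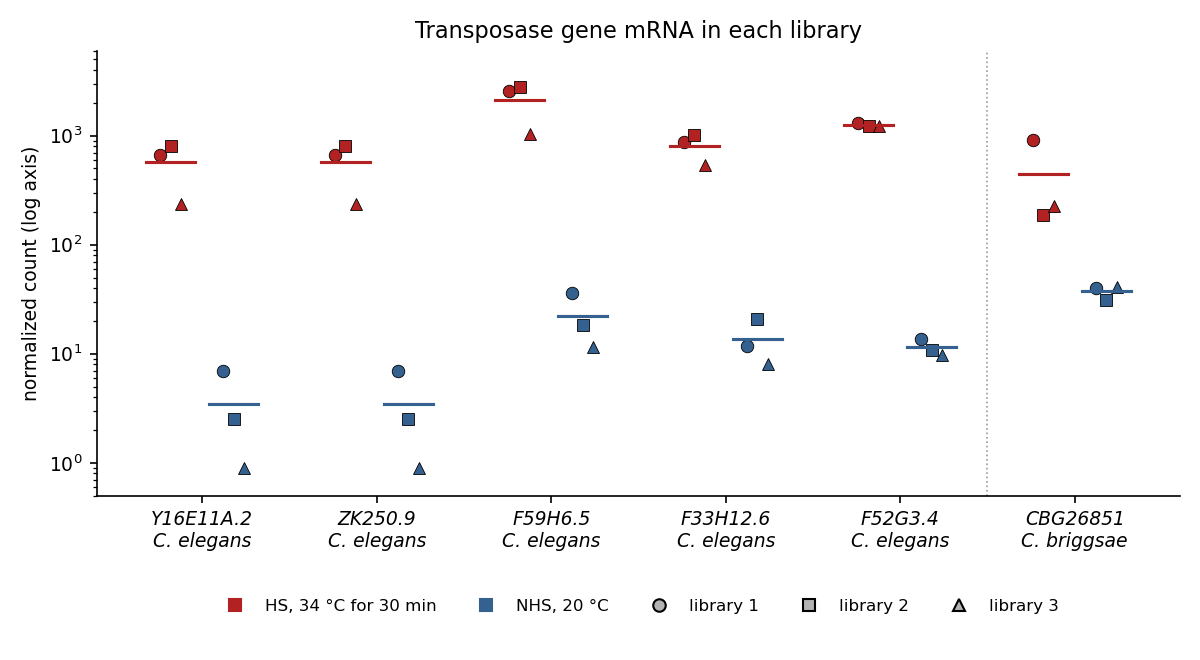
Normalized counts (log axis) of the 6 transposase genes in each library, HS in red left of NHS in blue, with marker shapes for the 3 libraries of a group and a line at each mean. For *CBG26851* the NHS triangle is the library with no replicate number. All HS points lie above all NHS points of the same gene, and the HS triangle is low for the 4 copies of *Helitron1_CE* but not for *F52G3.4*.

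*Y16E11A.2*, the copy that the study's own primers for this element target, had 671, 806 and 237 normalized counts in the HS libraries 1 to 3, against 6.88, 2.50 and 0.887 in NHS replicates 1 to 3. *ZK250.9* had exactly the same value as *Y16E11A.2* in all 6 libraries. The lowest HS library of this pair was 34.5 times its highest NHS library, and HS replicate 3 stood well under the other two. Behind the NHS values were 7, 3 and 1 reads, with exact 95% Poisson intervals of 2.81 to 14.4, 0.619 to 8.77 and 0.0253 to 5.57 reads, which cover counting error only. The mean was 571 ± 297 in HS and 3.42 ± 3.101 in NHS (SD, n = 3 each), a mean difference of 7.08 in log2(normalized count + 1), with a standard error of 0.81. No other *C. elegans* gene tested had a larger difference than this pair on this scale, whereas 18 genes had a larger one with a pseudocount of 5, where that of the pair was 5.98.

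Genes whose transcripts share all of their sequence cannot be separated by reads, and those of *Y16E11A.2* and *ZK250.9* could not be told apart in this table. Such pairs were few. Among the 16299 *C. elegans* genes above 0 in all 6 libraries, 57 pairs and 3 sets of 3 had identical values throughout, as did 111 pairs and 1 set of 3 of 17478 *C. briggsae* genes. Whether the pair's reads were divided between the 2 entries or counted in both is not given in the sources used here.

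*F59H6.5* had the largest normalized count of the 4 copies in every HS library, on a scale that does not take transcript length into account. It had 2543, 2803 and 1027 normalized counts in the HS libraries 1 to 3, against 36.4, 18.4 and 11.5 in NHS replicates 1 to 3. Again HS replicate 3 was the lowest of the HS libraries, and it still was 28.2 times the highest NHS library. The means were 2124 ± 959 in HS and 22.1 ± 12.8 in NHS (SD, n = 3 each), with a log2 difference of 6.54 (SE 0.65).

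*F33H12.6* encodes the Rep-Helicase that the study compared with the protein of *C. briggsae*. It had 882, 1004 and 541 normalized counts in the HS libraries 1 to 3, against 11.8, 20.9 and 7.98 in NHS replicates 1 to 3. The order of the HS libraries was that of the other copies, but HS replicate 3 fell less far below the rest. The means were 809 ± 240 in HS and 13.6 ± 6.62 in NHS (SD, n = 3 each), with a log2 difference of 5.85 (SE 0.46), the smallest of the 4 copies.

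Because reads from near-identical copies can be shared out in more than one way, the 4 genes were also taken as a sum. Apart from the identical pair, it does not depend on how reads were divided among the 4. Sharing of reads with other Helitron sequences was not examined. The sum was 4766, 5419 and 2042 normalized counts in HS replicates 1 to 3, against 61.9, 44.3 and 21.3 in NHS replicates 1 to 3. Its log2 difference was 6.56 (SE 0.62). In the NHS libraries the sum rested on 63, 53 and 24 reads, so the transposase mRNA was detected in every control library, at a low level. Counting the identical pair once left a log2 difference of 6.45.

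The sum was divided among the copies in similar shares in HS replicates 1 and 2. *F59H6.5* held 53.3, 51.7 and 50.3% of it in HS replicates 1 to 3, against 58.7, 41.5 and 54.2% in NHS replicates 1 to 3. *F33H12.6* held 18.5, 18.5 and 26.5% in HS, against 19.05, 47.2 and 37.5% in NHS. Each gene of the identical pair held 14.1, 14.9 and 11.6% in HS, against 11.1, 5.66 and 4.17% in NHS. The HS and NHS ranges of *F59H6.5* and *F33H12.6* overlapped. Those of the identical pair were only just apart (11.6% in HS replicate 3 and 11.1% in NHS replicate 1). Its NHS shares rest on 7, 3 and 1 reads per gene, so nothing is read from that gap.

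The NHS shares rest on few reads, and so the 2 copies with values of their own were compared by their reads. *F33H12.6* made up 921 of 3577, 966 of 3662 and 392 of 1136 reads of this pair in HS replicates 1 to 3, against 12 of 49, 25 of 47 and 9 of 22 in NHS replicates 1 to 3. As shares these were 25.7% (exact 95% Clopper-Pearson interval 24.3 to 27.2), 26.4% (24.96 to 27.8) and 34.5% (31.7 to 37.4) in HS. In NHS they were 24.5% (13.3 to 38.9), 53.2% (38.1 to 67.9) and 40.9% (20.7 to 63.6), intervals of counting error only. NHS replicate 1 was below HS replicates 1 and 2 and NHS replicate 2 above all HS libraries, so that the share did not separate the groups. HS replicate 3 lay above HS replicates 1 and 2 by more than the counting error.

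**Figure D2:**
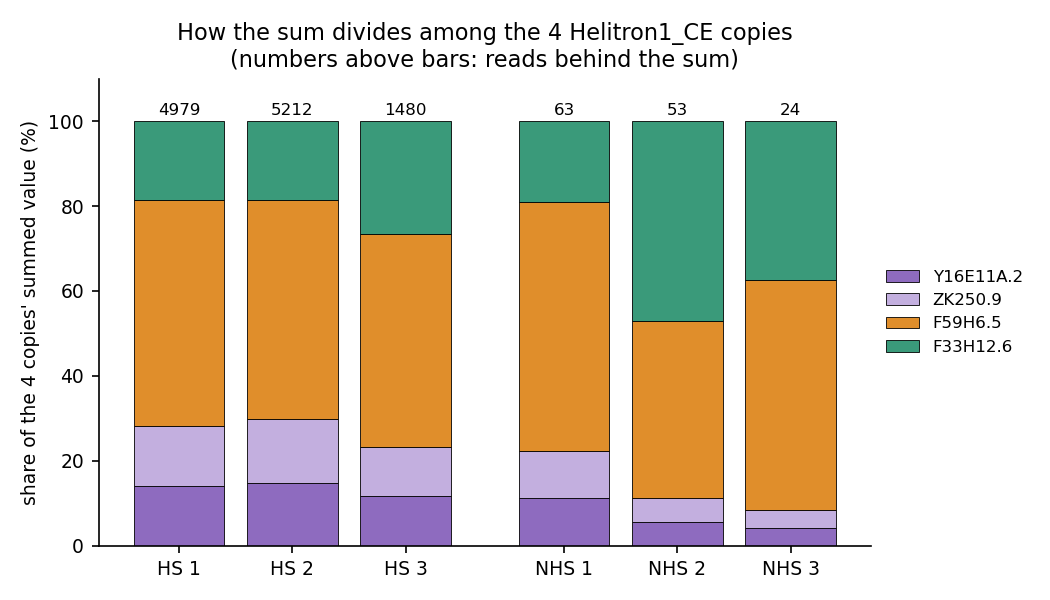
Share (%) of the summed normalized count of the 4 *Helitron1_CE* copies held by each gene, in HS libraries (left) and NHS libraries (right), with the reads behind each sum above its bar. The sums rest on 1480 to 5212 reads in HS and on 24 to 63 reads in NHS, and *F59H6.5* takes 41.5 to 58.7% in every library.

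*F52G3.4* stood apart from the 4 copies by how little its replicates varied. The annotation (WBcel235, the assembly also called ce11) lists it as a pseudogene of 7 exons on the minus strand of chromosome X, chrX:16948025-16952026. It had 1305, 1218 and 1234 normalized counts in the HS libraries 1 to 3, against 13.8, 10.9 and 9.76 in NHS replicates 1 to 3. The highest HS library was 1.07 times the lowest, where this ratio was 3.39 for *Y16E11A.2*, 2.73 for *F59H6.5* and 1.86 for *F33H12.6*. The means were 1252 ± 46.4 in HS and 11.5 ± 2.07 in NHS (SD, n = 3 each), with a log2 difference of 6.66 (SE 0.14). Relative to the sum of the copies, *F52G3.4* was 0.274, 0.225 and 0.604 in HS replicates 1 to 3, against 0.222, 0.245 and 0.458 in NHS replicates 1 to 3. The third replicate had the highest ratio in HS and in NHS, and the ranges of HS and NHS overlapped.

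HS replicate 3, which also had the fewest reads, was compared with the mean of the other 2 HS libraries. Its value was 0.321 times that mean for *Y16E11A.2* and *ZK250.9*, 0.384 times for *F59H6.5*, 0.574 times for *F33H12.6* and 0.978 times for *F52G3.4*. Over the 1791 genes called up the median of this ratio was 1.07 (quartiles 0.775 and 1.40). HS replicate 3 took part in those calls, and a call favours genes with even HS libraries. The median is therefore no measure of how responding genes in general behaved in that library. The sum of the copies had a ratio of 0.401, and 2.01% of the genes called up had a lower one. The chaperone gene *hsp-70*, taken as the reference heat shock gene, also had a low ratio (0.578, with 9.10% of the genes called up lower). Without HS replicate 3 the sum's log2 difference was 6.99.

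**Figure D3:**
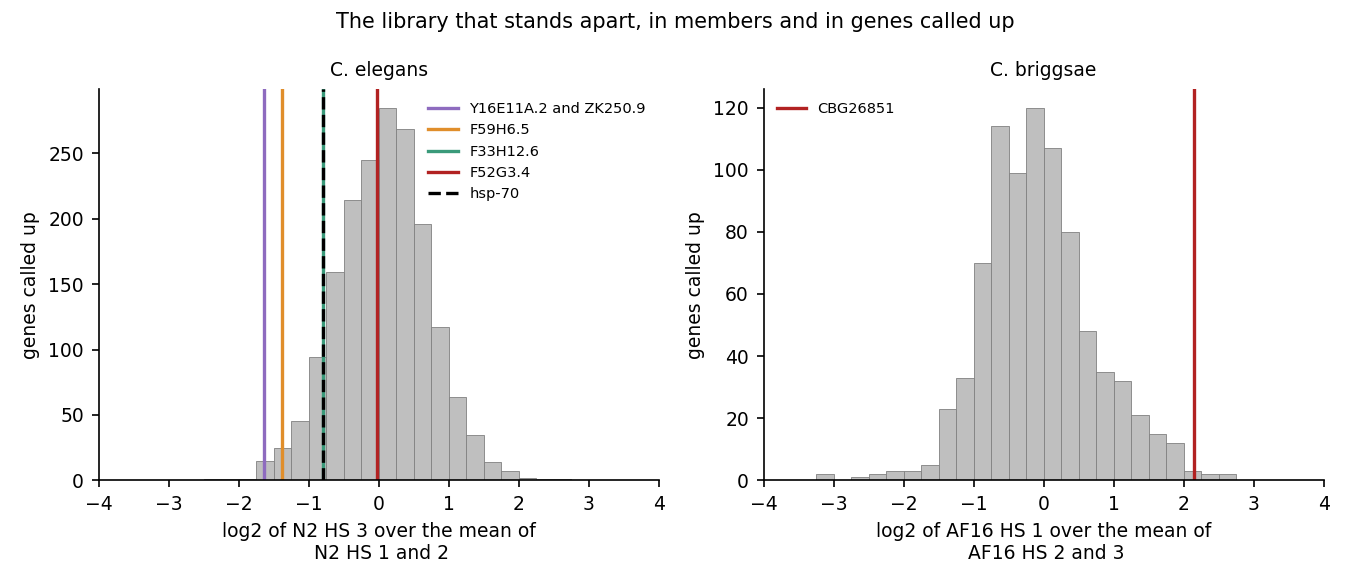
Number of genes called up in bins of the log2 ratio of 1 HS library to the mean of the other 2, for HS replicate 3 of *C. elegans* (left, 1791 genes) and HS replicate 1 of *C. briggsae* (right, 832 genes), with lines for the members and, dashed, for *hsp-70*. The copies of *Helitron1_CE* lie left of the bulk of genes called up (0.321 to 0.574 times), *F52G3.4* lies within it (0.978 times), and *CBG26851* lies to the right (4.43 times).

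The *C. briggsae* gene *CBG26851* had the smallest difference between HS and NHS of the 6 members. It had 918, 189 and 225 normalized counts in the HS libraries 1 to 3, against 40.1 and 31.2 in NHS replicates 1 and 2 and 41.1 in the NHS library with no number. The groups did not overlap, and 1 HS library was far above the other 2. Behind these values were 754, 175 and 189 reads in HS, against 61, 33 and 40 in NHS. The means were 444 ± 411 in HS and 37.5 ± 5.43 in NHS (SD, n = 3 each), with a log2 difference of 3.16 (SE 0.73). A larger log2 difference was found in 240 of the 18470 *C. briggsae* genes tested.

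HS replicate 1 was 4.43 times the mean of HS replicates 2 and 3 for *CBG26851*. The median of this ratio was 0.914 over the 832 *C. briggsae* genes called up (quartiles 0.657 and 1.31), and 0.601% of them had a higher one. HS replicate 1 took part in those calls, which favour genes with even HS libraries. The median is therefore no measure of how responding genes in general behaved in that library. Without HS replicate 1, 1228 genes were called up and 649 down. Leaving out any other library gave 348 to 502 up and 68 to 213 down. Without HS replicate 1 the log2 difference of *CBG26851* was 2.44. The spread between HS libraries came from a low library in the *C. elegans* copies and from a high library in the *C. briggsae* gene.

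Set beside its 2 counterparts, *CBG26851* had a log2 difference of 3.16 (SE 0.73), *F33H12.6* one of 5.85 (SE 0.46) and *F52G3.4* one of 6.66 (SE 0.14). The tables were normalized separately and the genes were chosen on these values, so the differences between species were not tested. The ratio of the lowest HS library to the highest NHS library was 4.59 for *CBG26851*, 25.9 for *F33H12.6* and 88.5 for *F52G3.4*.

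To place the copies in their surroundings, the nearest gene of the table on each side of each *C. elegans* member was examined. Position chose these genes. There were 8 outside the members, of which 7 passed the filter, 5 were called up, 0 were called down and 2 were not called, beside the 10.2% called up among all genes. At an unadjusted limma p under 0.05, 6 of the 7 differed at any fold change, as did 52.6% of all genes tested. The neighbours *ceh-84* and *F33H12.1* are, like the 4 copies, on the study's list of genes near Helitron heat shock elements, which was drawn up for a rise in these libraries, and their calls are not independent of it. Both also passed the filter only through their HS libraries, with NHS values of 0 for *ceh-84* and 0 to 1.67 for *F33H12.1*. The count of neighbours called up is therefore not read as a result about position.

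*F33H12.6* lies between *sri-39* (chrII:2587504-2589754, plus strand), which encodes a predicted chemoreceptor, and *F33H12.1* (chrII:2600476-2601779, plus strand). *sri-39* had 193, 238 and 75.9 normalized counts in the HS libraries 1 to 3, against 2.95, 2.50 and 1.77 in NHS replicates 1 to 3. It rose, at a log2 fold change of 5.50 (SE 0.41, limma adjusted p = 2.0e-05), and its HS replicate 3 was 0.352 times the mean of the other 2. *F33H12.1* had 16.3, 13.5 and 5.52 normalized counts in HS, against 0, 1.67 and 0.887 in NHS. Its log2 fold change was 2.78 (SE 0.55, limma adjusted p = 0.0030), and the call was lost without NHS replicate 1, HS replicate 1 or HS replicate 2 (adjusted p = 0.012, 0.019 and 0.014 in limma).

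*F59H6.5* lies between *ceh-84* (chrII:1999743-2000820, minus strand), a homeobox gene, and *F59H6.15* (chrII:2012998-2013409, plus strand). *ceh-84* was listed at 15.3, 24.95 and 19.3 normalized counts in HS replicates 1 to 3 and at 0 in the 3 NHS libraries. Its HS mean was at least 7.34-fold higher than the level that 3 reads per NHS library would give (limma adjusted p = 5.8e-05). *F59H6.15* was listed at 0 in all 6 libraries and was not tested.

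*Y16E11A.2* and *ZK250.9* are neighbours of each other in the table. Beyond *Y16E11A.2*, *math-44* (chrII:1989310-1990535, plus strand), a gene of the MATH domain family, had 39.2, 34.3 and 26.2 normalized counts in HS, against 4.92, 7.51 and 7.10 in NHS. It rose, at a log2 fold change of 2.19 (SE 0.30, limma adjusted p = 4.1e-04). Beyond *ZK250.9*, the pseudogene WBGene00022691 (chrII:1956050-1957890, minus strand) had 8.62, 1.04 and 2.76 normalized counts in HS, against 2.95, 2.50 and 0.887 in NHS. Those groups overlapped, and its log2 fold change of 0.50 (SE 0.63) did not pass the test (limma adjusted p = 0.55).

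On chromosome X, *F52G3.4* has *F52G3.3* on one side (chrX:16944858-16948026, minus strand), also listed as a pseudogene and sharing 2 bases with it. *F52G3.3* had 1480, 1200 and 1684 normalized counts in the HS libraries 1 to 3, against 21.6, 16.7 and 7.98 in NHS replicates 1 to 3. It rose, at a log2 fold change of 6.56 (SE 0.34, limma adjusted p = 3.9e-05), and as in *F52G3.4* its HS replicate 3 was not low (1.26 times the mean of the other 2). On the other side *F52G3.1* (chrX:16963871-16972818, plus strand) had 2676, 2672 and 2503 normalized counts in HS, against 3319, 3373 and 3266 in NHS. Its log2 fold change of -0.34 (SE 0.05, limma adjusted p = 8.8e-04) was under the 2-fold limit, with the 3 HS values below the 3 NHS values.

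**Figure D4:**
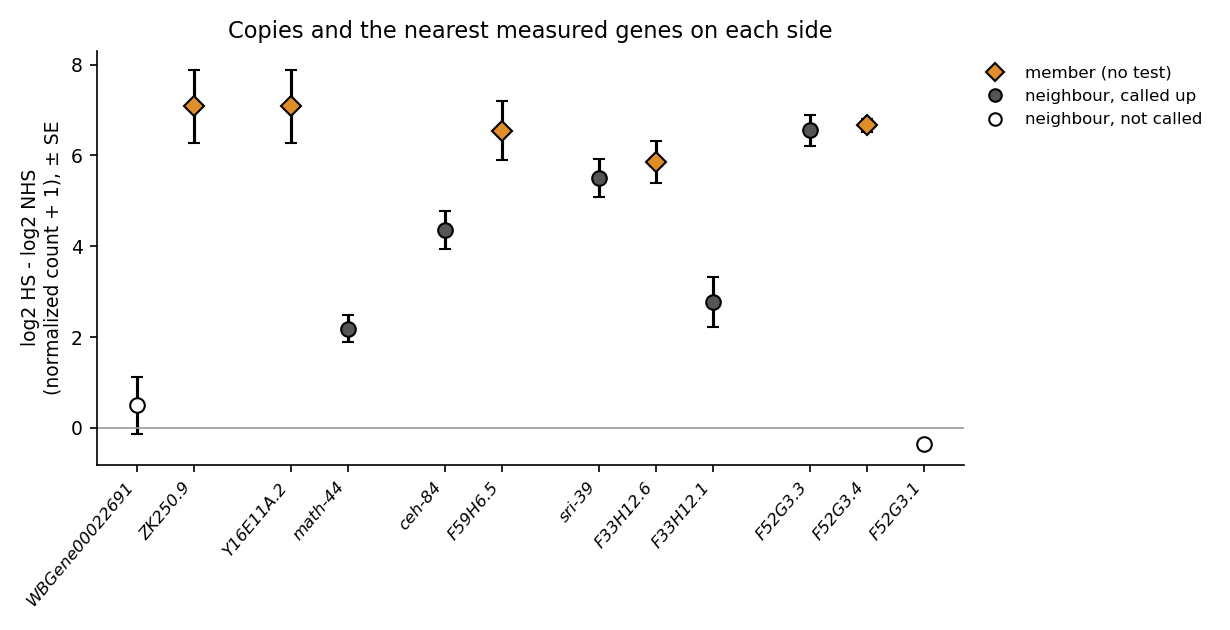
Mean difference between HS and NHS in log2(normalized count + 1) with its standard error, for the 5 *C. elegans* members (orange diamonds, described with no test) and the nearest measured gene on each side (circles, filled where called up by limma). Standard errors of members come from the spread of their own libraries, and those of neighbours from limma, so they are not directly comparable. *sri-39* and *F52G3.3* lie close to their members, at 5.50 beside 5.85 and at 6.56 beside 6.66, while *F52G3.1* lies at -0.34. *F59H6.15*, at 0 throughout, is not drawn.

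The profile of the summed copies over the 6 *C. elegans* libraries was closest to those of heat shock protein genes. Likeness was the root mean square difference of log2(normalized count + 1) after subtracting each gene's mean, over 6 libraries and 17546 genes. The nearest were *hsp-16.2* (0.187), *hsp-70* (0.226), *hsp-16.41* (0.255) and *hsp-16.1* (0.294), which encode chaperones, followed by *R11A5.3* (0.333), whose product is uncharacterized. The nearest of them, *hsp-16.2*, had 87979, 108288 and 54323 normalized counts in the HS libraries 1 to 3, against 1157, 1041 and 480 in NHS replicates 1 to 3. *hsp-70* had 97171, 129463 and 65511 normalized counts in HS, against 1248, 1038 and 499 in NHS. In both genes the third replicate was the lowest in HS and in NHS, as in the summed copies, a likeness that the measure itself selects for.

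For *F52G3.4* the nearest profiles were a second gene named *hsp-16.1* in the annotation (WBGene00002017, 0.234), *R11A5.3* (0.242), the HSP70 gene *F44E5.4* (0.255), the F-box gene *fbxa-48* (0.291) and the nuclear hormone receptor gene *nhr-241* (0.308). Members of the *hsp-16* and HSP70 families may share reads with close copies. For comparison, *F52G3.4* differed from the summed copies by 0.546 on this scale and from its neighbour *F52G3.3* by 0.321. Within the copies, *F59H6.5* was 0.317 from the identical pair and 0.640 from *F33H12.6*.

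The genes nearest to *CBG26851* among 18469 *C. briggsae* genes were all weak. They were WBGene00026842 (0.194), WBGene00087993 (0.239), *CBG30117* (0.282), *CBG26932* (0.285) and WBGene00030685 (0.296), with no product named in the files. *CBG26932* had 30.4, 8.63 and 10.7 normalized counts in the HS libraries 1 to 3, against 0.657 and 0 in NHS replicates 1 and 2 and 1.03 in the NHS library with no number. WBGene00026842 was listed at 23.1, 4.31 and 3.58 in HS and at 0 in the 3 NHS libraries. Like *CBG26851*, each of the 5 had its highest value in HS replicate 1, which the measure of likeness selects for.

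**Figure D5:**
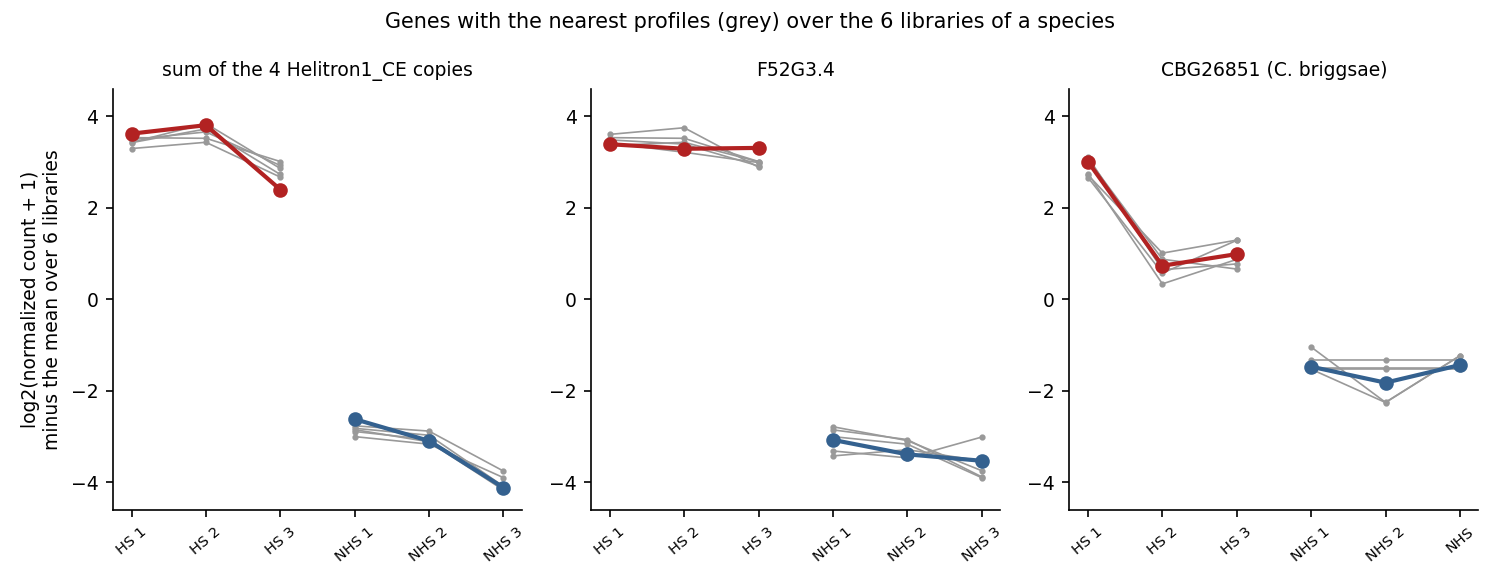
log2(normalized count + 1) minus its mean over the 6 libraries of a species, for the sum of the *Helitron1_CE* copies, *F52G3.4* and *CBG26851* (HS in red, NHS in blue), each with its 5 nearest genes in grey. The lines join libraries of a group only to guide the eye. The copies and their nearest genes are lowest in the third library of both groups, and *CBG26851* and its nearest genes are highest in HS replicate 1.

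Lists of host genes, 3 in all, were set beside the transposases in *C. elegans*. The first held 43 genes that silence transposons through small RNAs and heterochromatin. In limma, 1 was called up, 0 were called down and 42 were not called, where 10.2% of all genes were called up and 2.77% down. The gene called up was *alg-4*, an Argonaute known from the germline that makes sperm, with 7.52, 15.95 and 10.8 normalized counts in HS replicates 1 to 3, against 0.702, 0 and 0.634 in NHS replicates 1 to 3. Its log2 fold change was 3.09 (SE 0.47, limma adjusted p = 7.6e-04), from a few reads per library. Its relation to the adult and sperm markers above was not tested. With no limit on the fold change, 14 of the 43 had lower and 2 higher levels in HS at an adjusted p under 0.01, and 23 had an unadjusted p under 0.05. Over all genes these shares were 12.9% lower and 15.8% higher, and 52.6% had an unadjusted p under 0.05. The median log2 fold change of the list was -0.10, beside 0.04 for all genes and -0.17 for the markers of larval tissues, and the part of a shift in tissue markers was not tested.

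The second list held 20 cellular helicases and single-strand DNA binding proteins, the host's counterparts of the activities of the transposase. None was called in limma (0 up and 0 down, with 12 of 20 at an unadjusted p under 0.05, beside 52.6% of all genes). With no limit on the fold change, 7 were lower and 2 higher in HS at an adjusted p under 0.01, beside 12.9% and 15.8% of all genes. The median was -0.22, beside -0.17 for the markers of larval tissues, and the part of a shift in those was not tested. The log2 fold changes ran from -0.59 to 0.61, against 5.85 to 7.08 in the transposase copies. *rpa-2*, a subunit of the single-strand DNA binding complex named here after its values were seen, was at the upper end with 3882, 3919 and 3303 normalized counts in HS replicates 1 to 3, against 2332, 2359 and 2587 in NHS replicates 1 to 3.

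The third list was *hsf-1* and 3 genes for its regulators. In limma 0 were called up and 0 down, with 1 of 4 at an unadjusted p under 0.05, beside 52.6% of all genes. *hsf-1* had 855, 970 and 930 normalized counts in the HS libraries 1 to 3, against 846, 979 and 815 in NHS replicates 1 to 3. The groups overlapped, and its log2 fold change was 0.06 (SE 0.09, limma adjusted p = 0.58), or -0.29 with libraries scaled to equal totals, which moved the median of all genes from 0.04 to -0.32. The level of the HSF-1 message is no measure of the activity of the protein.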

How the data were processed

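The deposited tables hold signal values (normalized counts per gene). The authors assigned reads of stranded total RNA libraries to mRNA transcripts with Salmon 0.13.1 and normalized them with DESeq2 1.18.1, separately in each species (builds ce11 and cb4). Integer counts could not be recovered for all genes, so tests on counts were not run. Columns not used numbered 0.

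Genes with a mean of at least 2 were fitted on log2(normalized count + 1) with limma 3.58.1 (R 4.3.3, statmod 1.5.0), trend and robust variances, two-sided, with Benjamini-Hochberg adjustment over all genes tested. A fold change on this scale understates that of weak genes. Calls needed more than a 2-fold change and an adjusted p below 0.01. In simulated data 200 genes per species were changed by known folds, among 16376 (*C. elegans*) and 17898 (*C. briggsae*) genes fitted. Of these changes, 100% of the 4-fold ones were called, and 42% (*C. elegans*) and 40% (*C. briggsae*) of the 2-fold ones. The limit of more than a 2-fold change holds the latter share down in advance. Weak genes were not among those changed and the noise was that of the NHS libraries. The shares therefore do not cover genes as weak in NHS as the members. The other tools were scipy 1.17.1, numpy 2.4.6 and pandas 2.3.3 in Python 3.11.15.

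The members, lists and rules were chosen with earlier results of these data known. Named genes are the 6 members, their nearest measured neighbours, the 5 nearest profiles each to the summed copies, *F52G3.4* and *CBG26851*, up to 3 called genes per list, *hsf-1* and *hsp-70*, with *rpa-2* and the markers added. A gene name was found for 19920 of 20213 *C. elegans* IDs (WBcel235) and 2933 of 21168 *C. briggsae* IDs. Positions of the copies on chromosome II came from the study's tables and were used only to find neighbours.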

Additional observations from a re-analysis of the deposited data

How the results depend on the processing

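The log2 differences of all 6 members stayed positive under every setting tried (pseudocounts of 0.5 and 5, equal totals, equal upper quartiles, the replicate number, and each library left out). The members were chosen on this contrast, and all their HS values lay above all their NHS values. The sign was thus fixed in advance for the pseudocounts and the left-out libraries, and it is no check of the rise. With a pseudocount of 5, *Y16E11A.2* and *ZK250.9* had 5.98 and *F52G3.4* 6.26. With equal totals *F52G3.4* had 6.32, a setting that moved the median of all genes to -0.32 in *C. elegans* and -0.37 in *C. briggsae*. Leaving out 1 library gave 6.59 to 7.62 for the identical pair, 6.17 to 7.001 for *F59H6.5*, 5.55 to 6.19 for *F33H12.6*, 6.56 to 6.79 for *F52G3.4*, 6.14 to 6.99 for the sum and 2.44 to 3.58 for *CBG26851*. The counts over all genes moved more. In *C. elegans* 1791 were up and 486 down. There were 1129 up at a mean of at least 10, 1329 down with equal totals (52.7% of calls up, against 78.7%), 2765 up and 2266 down with no minimum fold change, and 1137 to 1611 up and 338 to 595 down without 1 library. In *C. briggsae* 832 were up. There were 1479 down with equal totals (31.1% of calls up, against 72.2%), 1501 up and 1285 down with no minimum fold change, 1459 up and 594 down at an adjusted p under 0.05, and 348 to 1228 up and 68 to 649 down without 1 library. The highest of each range came without HS replicate 1. The cause was not tested. Among the single genes tested, the signs of WBGene00022691 (-0.10 without HS replicate 1) and *hsf-1* (-0.29 with equal totals) turned (range for WBGene00022691 without 1 library -0.10 to 1.02), neither of them called. *vit-2* lost its call without NHS replicate 1, as did *F33H12.1* without 3 libraries. In the list of silencing genes *alg-4* was below a mean of 10, which left 0 up, and with no minimum fold change 2 were up and 14 down. In that of helicases 2 were up and 7 down. The list medians relative to all genes were -0.14, -0.26 and 0.00 with the authors' scaling, and the same to 2 decimals with equal totals or upper quartiles.

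Same-numbered HS and NHS libraries of *C. elegans* deviated together only weakly (correlations 0.09, 0.06 and 0.15 over genes), so the numbers were not taken as pairs, although each library correlated best with its own number. In *C. elegans* each number occurs once in HS and once in NHS, so the replicate block cannot change a mean difference and is no check of it. The standard errors given for the members take no account of the replicate number. In *C. briggsae* the block, over replicates 1 and 2 only, gave 179 genes up and 43 down and 3.52 for *CBG26851*. The search for protein relatives of the members was not run, since no protein sequences were used here. With 3 libraries a group and 1 to 37 reads behind the NHS values of the copies, their folds are imprecise.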
